A study of Mus musculus with 6 samples.

Results

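The genes of the cornified envelope and of late keratinocyte differentiation were compared between 2 epithelial cancer cell populations of mouse cutaneous squamous cell carcinoma (cSCC). The 57 genes were chosen by name, for the structural precursors of the envelope, the enzymes that cross-link them and the secreted proteins and protease inhibitors made in the uppermost living layers. Each gene was read from its probe sets that name that gene alone, and the brightest of these, by its average on the 6 arrays, stood for it. This gave values for 46 of the 57 genes, out of 17097 genes measured in the same way and 45141 probe sets on the array. The other 11 (*Flg2*, *Sprr2b*, *Sprr2e*, *Sprr2g*, *Sprr4*, *Lce1c*, *Lce1e*, *Lce3f*, *Crct1*, *Stfa1* and *Spink12*) had no single-gene probe set here and were dropped.

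EpCAM+ plastic cancer cells came from 3 independent moderately or poorly differentiated tumors (MD/PD-SCCs, n = 3), and full epithelial cancer cells from 3 independent well-differentiated tumors (WD-SCCs, n = 3), with 1 array per tumor. The cancer cells of both groups derived from tumors, spontaneous or induced with the carcinogen and promoter pair DMBA/TPA, of K14-HPV16Tg/+ mice, in which the keratin 14 promoter drives papillomavirus genes in basal keratinocytes, and WD-SCCs gave rise to MD/PD-SCCs on serial engraftment into immunodeficient nude mice. Both populations were sorted as α6-integrin+CD45-EpCAM+ cells after an overnight collagenase and dispase digestion and depletion of CD31+ endothelial cells, and the EpCAM+ plastic group pools cells with high and with low EpCAM. The mesenchymal EpCAM-negative cells that MD/PD-SCCs also contain were outside the sort. By the methods, the cancer cells of the study carried GFP from a lentivirus. By the same methods, the host mice of all tumors were young adult males. Whether the tumors of a group descend from 1 lineage and which arrays shared a strip were not given in the sources used here. Because RNA was taken from bulk sorted cells, fewer keratinocytes in late differentiation and less RNA per such cell cannot be told apart.

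In the epidermis, keratinocytes that leave the basal layer replace their plasma membrane with the cornified envelope, a sheet of insoluble protein. Involucrin and the plakins envoplakin and periplakin line the membrane first, transglutaminases then cross-link loricrin, small proline-rich (SPRR) proteins and late cornified envelope (LCE) proteins onto that scaffold, and lipids are attached outside it. Most of the precursor genes lie together in the epidermal differentiation complex on mouse chromosome 3, and well-differentiated cSCCs are known for keeping this program in part, in the form of keratin pearls.

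Expression values were RMA log2 values, so a difference of 1 is a change of 1 doubling. The array carries 23 background probe sets, with a median of 3.37, whose 90th percentile of 5.71 served as the background level. By group mean, 39 of the 46 genes were above this level in both groups, *Wfdc12* in full epithelial cells only, and 6 (*Hrnr*, *Lce1g*, *Tgm5*, *Mt4*, *Casp14* and *Stfa3*) in neither. The array medians ran from 4.85 to 4.90. *Epcam* stood at 11.04, 10.79 and 11.15 in EpCAM+ plastic and 10.66, 10.97 and 10.46 in full epithelial cells, the leukocyte gene *Ptprc* (CD45) was between 2.90 and 3.00 on all 6 arrays, and the mesenchymal filament gene *Vim* was 2.26 higher in EpCAM+ plastic cells (limma adjusted p = 0.0166).

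For these genes, the array of EpCAM+ plastic 3 stood apart from the rest. It held the lowest value of all 6 arrays for 42 of the 46 genes, against 19.6% of all genes. Measured from the full epithelial mean of each gene, the median deviation of the 46 genes was −0.74 in EpCAM+ plastic 1, −0.16 in EpCAM+ plastic 2 and −1.90 in EpCAM+ plastic 3, while the median over all genes was −0.00, −0.03 and −0.03. EpCAM+ plastic 3 lay below the lowest full epithelial array for all 46 genes (all genes 33.2%), EpCAM+ plastic 1 for 33 (all genes 28.1%) and EpCAM+ plastic 2 for 23 (all genes 32.4%). The 46 genes also varied more among the EpCAM+ plastic tumors, with a median SD of 0.94, than among the full epithelial tumors, with a median SD of 0.26. Over all genes these SDs were 0.13 and 0.16. The heat map of every gene on every array shows this order of the 3 EpCAM+ plastic tumors in nearly all roles.

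**Figure D1:**
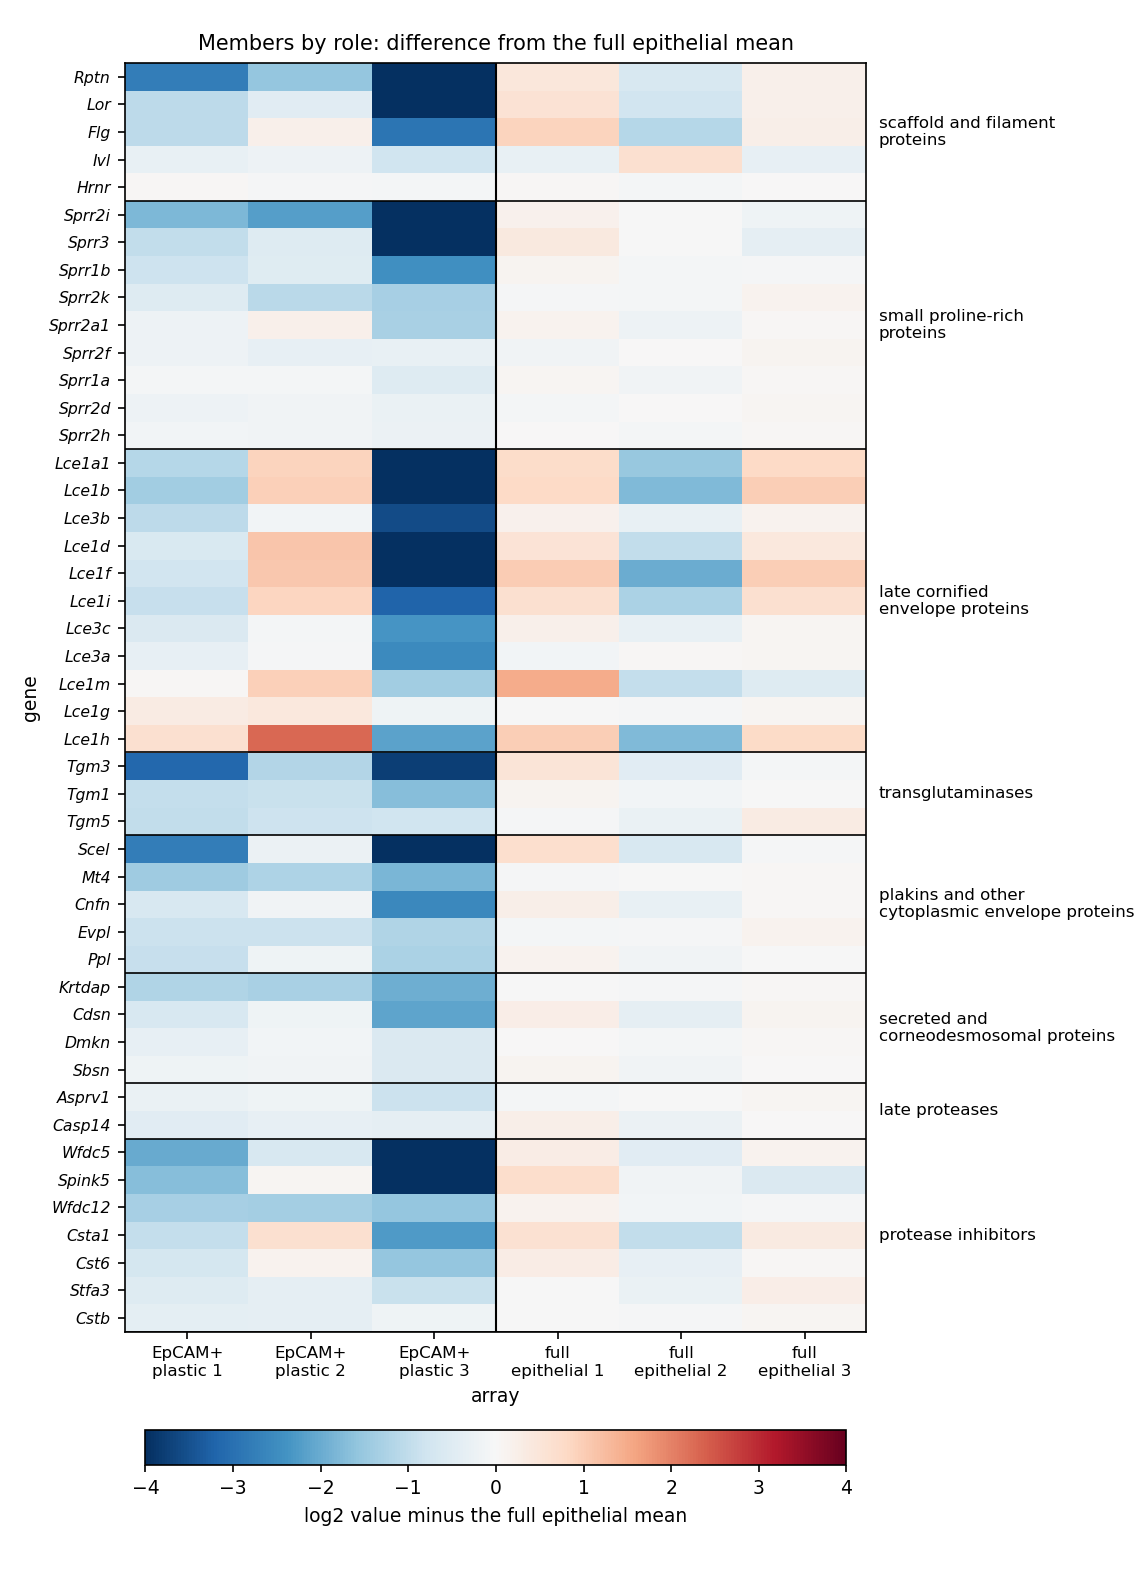
Heat map of the 46 measured genes (rows, grouped by role) on the 3 EpCAM+ plastic and 3 full epithelial arrays (columns). Colour is the RMA log2 value minus the full epithelial mean of that gene, blue below and red above 0, and the scale stops at −4 and 4, so the −6.18 of *Sprr3* in EpCAM+ plastic 3 is drawn at −4. Blue is deepest in EpCAM+ plastic 3, and most *Lce1* genes are red in EpCAM+ plastic 2 and blue in full epithelial 2.

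Of the 46 genes, 8 fell in EpCAM+ plastic cells at an adjusted p under 0.05 (17.4% of those measured), against 1.91% of all genes, and 0 rose, against 5.30% of all genes (limma). The 8 were the cross-linking enzymes *Tgm1* and *Tgm5*, the envoplakin gene *Evpl*, the metallothionein *Mt4*, the small proline-rich genes *Sprr2i* and *Sprr2k*, the secreted peptide gene *Krtdap* and the protease inhibitor *Wfdc12*. At an unadjusted p under 0.05, 19 genes were lower (all genes 9.01%) and 0 higher. A log2 fold change below 0 was found for 44 of the 46 genes (all genes 54.3%), and the median was −0.97, against −0.02 over all genes. In 23 genes every EpCAM+ plastic array lay below every full epithelial array (all genes 13.7%), and no gene had the opposite order (all genes 15.4%). With the fold threshold of at least 1 on the log2 scale added, *Tgm1*, *Mt4*, *Sprr2i*, *Krtdap* and *Wfdc12* remained, 5 of 46 (all genes 2.83% in either direction and 0.831% lower). These are fitted differences, and for *Mt4*, under the background level on all arrays, and *Wfdc12*, under it on all EpCAM+ plastic arrays, a fold of that size was not measured. Without EpCAM+ plastic 3, 6 genes fell, all of them among the 8, and the median log2 fold change was −0.38.

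**Figure D2:**
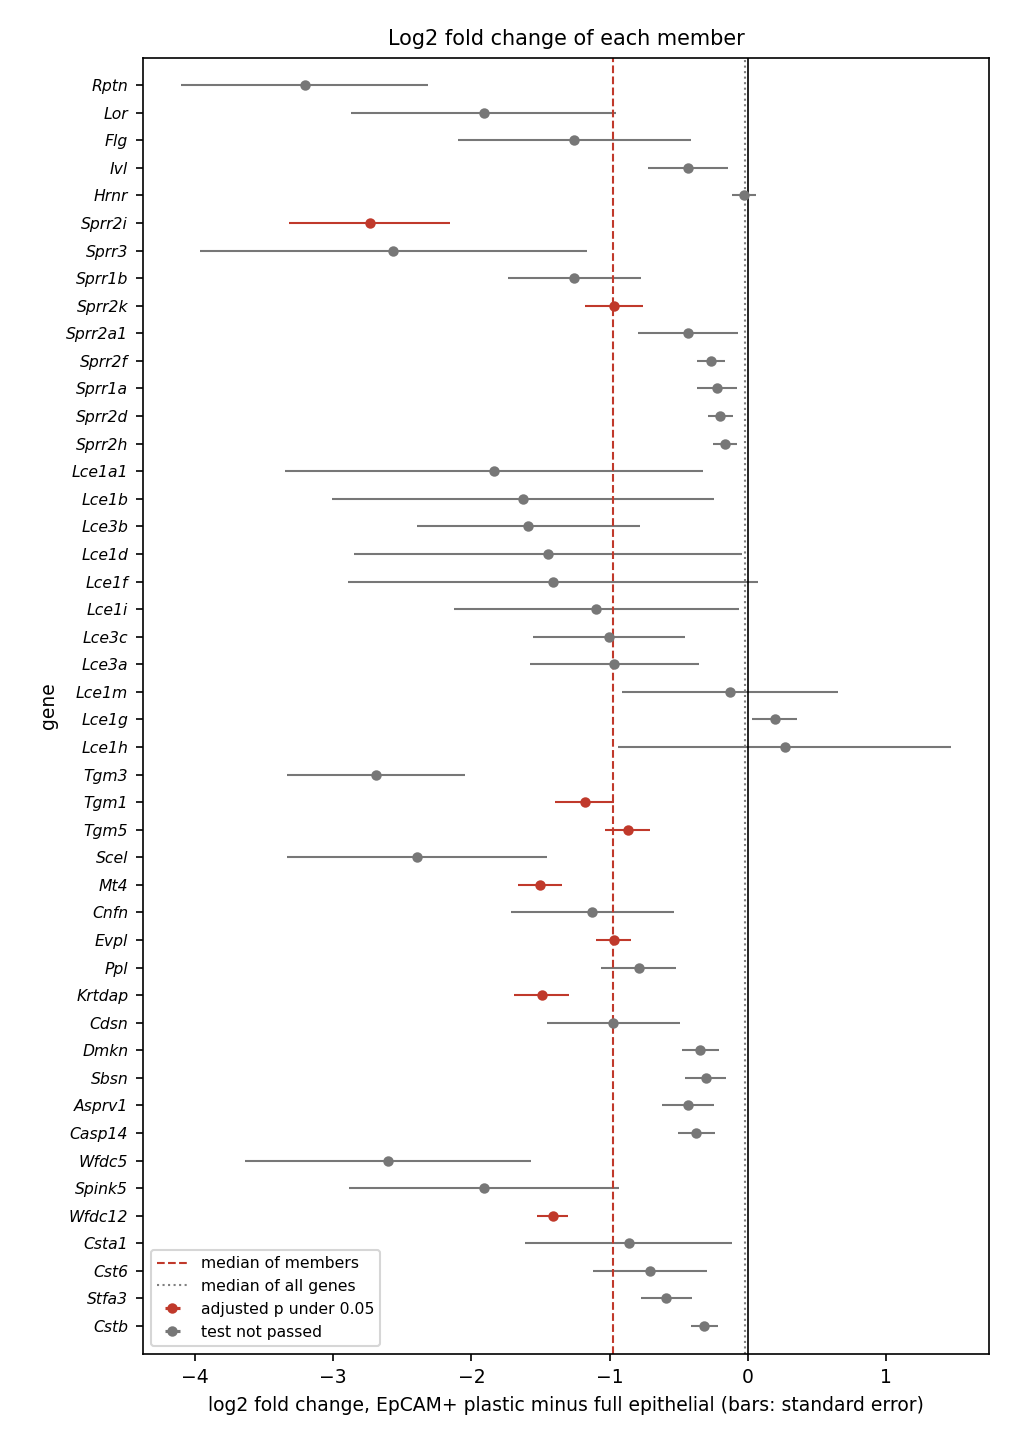
Log2 fold change of each of the 46 genes (x axis, EpCAM+ plastic minus full epithelial, bars are standard errors from limma), ordered by role. Red points passed an adjusted p of 0.05. The dashed line is the median of the 46 genes (−0.97) and the dotted line that of all genes (−0.02). Only *Lce1g* and *Lce1h* lie to the right of 0, and the widest bars are those of *Lce1a1*, *Lce1f*, *Lce1d*, *Sprr3* and *Lce1b*.

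The structural scaffold and filament genes showed the largest single difference, but none of the 5 measured passed the test. *Rptn*, which encodes repetin, an S100-fused envelope precursor, had the most negative log2 fold change of all 46 genes. Its values were 8.71, 9.94 and 6.15 in EpCAM+ plastic 1, 2 and 3, against 11.91, 10.83 and 11.67 in full epithelial 1, 2 and 3. The groups did not overlap, with a log2 fold change of −3.20 ± 0.89 (SE, limma adjusted p = 0.0931). The highest and the lowest EpCAM+ plastic tumors differed by 3.78, more than the fold change itself. Both dimmer *Rptn* probe sets, which stayed under the background level on all arrays, were also lower on every EpCAM+ plastic array, with log2 differences of −0.73 (limma adjusted p = 0.0298) and −0.76 (limma adjusted p = 0.0890).

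*Lor*, the gene of loricrin, the main protein of the mature envelope, was at 9.83, 10.43 and 6.62 in EpCAM+ plastic and 11.44, 10.10 and 11.07 in full epithelial cells. EpCAM+ plastic 2 lay above full epithelial 2, so the groups overlapped, and a log2 fold change of −1.91 ± 0.96 (SE, limma adjusted p = 0.318) did not pass. *Flg*, whose product filaggrin bundles keratin filaments, read 7.67, 8.93 and 5.79 in EpCAM+ plastic and 9.61, 7.58 and 8.96 in full epithelial cells, again with the lowest full epithelial value in tumor 2 (log2 fold change −1.26, SE 0.84, limma adjusted p = 0.461). *Ivl*, encoding involucrin, differed least of the 4 scaffold and filament genes above background. It stood at 7.74, 7.83 and 7.22 in EpCAM+ plastic and 7.73, 8.66 and 7.70 in full epithelial cells, with a log2 fold change of −0.43 ± 0.29 (SE, limma adjusted p = 0.462), and here full epithelial 2 was the highest array. The second *Ivl* probe set had a log2 fold change of −0.78 with no overlap between the groups (limma adjusted p = 0.251). *Hrnr* (hornerin) remained between 3.13 and 3.26 on all 6 arrays, at background. The 95% intervals of the log2 fold changes came from the moderated variances of limma. They were −4.19 to 0.37 for *Lor*, −3.26 to 0.75 for *Flg* and −1.13 to 0.26 for *Ivl*. Equal levels were thus within each interval, and so were large losses of *Lor* and *Flg*. For the brighter *Ivl* probe set, a loss of more than 1.13 on the log2 scale was outside the interval. No interval was computed for the second *Ivl* probe set, so this limit does not extend to it.

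The small proline-rich proteins, which bridge other precursors in the envelope, ranged from genes with large negative differences to genes with nearly equal values. Of 13 listed genes 9 were measured, 2 fell and none rose, and in 7 the groups did not overlap. *Sprr2i* fell. Its values were 8.67, 8.28 and 6.26 in EpCAM+ plastic and 10.65, 10.46 and 10.32 in full epithelial cells, with a log2 fold change of −2.74 ± 0.58 (SE, limma adjusted p = 0.0455). The highest EpCAM+ plastic tumor lay 1.64 below the lowest full epithelial tumor, and EpCAM+ plastic 3 lay farthest down. *Sprr2k* fell as well, at 9.35, 8.77 and 8.53 in EpCAM+ plastic and 9.79, 9.76 and 10.00 in full epithelial cells, with a log2 fold change of −0.97 ± 0.21 (SE, limma adjusted p = 0.0470). Leaving out each array in turn, with fewer arrays in each fit, the log2 fold change of *Sprr2i* stayed between −3.20 and −1.995 and that of *Sprr2k* between −1.20 and −0.79. The call was kept in 1 of the 6 fits for each gene, *Sprr2i* without EpCAM+ plastic 3 (limma adjusted p = 0.0172) and *Sprr2k* without EpCAM+ plastic 1 (limma adjusted p = 0.0352).

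*Sprr3* had a log2 fold change of −2.56 (SE 1.40, limma adjusted p = 0.360) and the widest spread of the family. It read 10.40, 10.88 and 5.22 in EpCAM+ plastic and 11.78, 11.37 and 11.05 in full epithelial cells, so the value below background level in EpCAM+ plastic 3 carried most of the difference. *Sprr1b* was at 10.32, 10.65 and 8.67 in EpCAM+ plastic and 11.26, 11.07 and 11.08 in full epithelial cells (log2 fold change −1.25, SE 0.48, limma adjusted p = 0.194), also without overlap. The remaining 5 genes had log2 fold changes from −0.43 (*Sprr2a1*) to −0.17 (*Sprr2h*), and none passed. Among them, *Sprr2d* is given in full as a contrast to *Sprr2i*, chosen after its values were seen. It was at 11.70, 11.75 and 11.65 in EpCAM+ plastic and 11.81, 11.90 and 11.98 in full epithelial cells. The groups of *Sprr2d* did not overlap, but the difference was only −0.20 (limma adjusted p = 0.260). *Sprr2d*, *Sprr2f*, *Sprr2h* and *Sprr1a* all had full epithelial means above 11, on arrays whose highest value was 13.06. *Sprr1b* and *Sprr3*, with larger differences, also had full epithelial means above 11 (11.13 and 11.40). Of the 46 genes 17 had such a mean, and these had a median log2 fold change of −0.79 with 1 that fell, *Tgm1*. The part of signal height in these differences was not tested.

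The *Sprr2* genes lie side by side on chromosome 3. Their promoters are shown because genes that fell and genes that did not pass share the same short motifs. *Sprr2i* and *Sprr2k* fell, and *Sprr2d* and *Sprr2h* had small differences that did not pass. The *Sprr2h* probe set carries the suffix s, which marks probes that can match several transcripts, so its value is uncertain as to gene. The sequences are the last 210 bases before the annotated start (RefSeq, build GRCm38.p6), printed 5′ to 3′ on the strand of the gene. Capitals mark TGANTCA, the site class bound by AP-1 factors, the octamer ATTTGCAT and the TATA box TATAAA.
*Sprr2i* (chr3:92407781-92407990, plus strand): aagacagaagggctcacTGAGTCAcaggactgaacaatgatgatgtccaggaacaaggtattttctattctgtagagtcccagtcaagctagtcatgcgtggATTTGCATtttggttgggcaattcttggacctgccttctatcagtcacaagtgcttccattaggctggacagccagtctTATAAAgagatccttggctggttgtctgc
*Sprr2k* (chr3:92432372-92432581, plus strand): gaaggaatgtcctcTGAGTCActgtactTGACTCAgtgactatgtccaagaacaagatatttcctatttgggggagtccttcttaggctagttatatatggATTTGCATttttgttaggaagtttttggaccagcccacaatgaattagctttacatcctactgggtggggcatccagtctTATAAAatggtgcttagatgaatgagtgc
*Sprr2d* (chr3:92338930-92339139, plus strand): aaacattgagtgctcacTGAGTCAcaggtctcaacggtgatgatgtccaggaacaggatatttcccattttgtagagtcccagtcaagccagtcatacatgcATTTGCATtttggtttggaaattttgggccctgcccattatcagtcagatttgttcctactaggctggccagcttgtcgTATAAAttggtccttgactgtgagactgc
*Sprr2h* (chr3:92385475-92385684, plus strand): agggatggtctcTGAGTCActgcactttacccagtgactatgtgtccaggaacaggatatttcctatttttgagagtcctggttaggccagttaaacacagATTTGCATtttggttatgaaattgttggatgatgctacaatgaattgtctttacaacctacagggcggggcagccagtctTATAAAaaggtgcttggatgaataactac

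In all 4 sequences TATAAA began 29 bases before the start and ATTTGCAT 108 or 109 bases before it. TGANTCA began 193 bases before the start in *Sprr2i* and *Sprr2d*, 198 in *Sprr2h* and 196 in *Sprr2k*, which had a further copy at 182. Each motif was searched on both strands in the 250 bases before the start, and none overlapped another in these windows. All 3 motifs were present in 7 of the 8 *Sprr2* genes with a window, *Sprr2a1* being the exception. Of the 32851 promoter windows of the same length, 6.75% held TGANTCA, 1.60% ATTTGCAT and 12.4% TATAAA. Over the 47 listed genes with a window, TGANTCA was found in 18 and TATAAA in 20. ATTTGCAT was copied from the *Sprr2f* window after the sequences had been read, and then searched. Neighbouring *Sprr2* copies resemble one another over most of the window, so the genes are not independent cases of a motif.

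The LCE genes were the most variable role, and none of 11 measured genes (of 14 listed) fell or rose. Their median log2 fold change was −1.10, yet the groups overlapped in all 11. *Lce1a1* was at 8.84, 10.85 and 4.70 in EpCAM+ plastic and 10.72, 8.44 and 10.75 in full epithelial cells, with a log2 fold change of −1.84 ± 1.51 (SE, limma adjusted p = 0.558). *Lce1b* was at 7.62, 9.95 and 4.55 in EpCAM+ plastic and 9.80, 7.22 and 9.98 in full epithelial cells, with a log2 fold change of −1.63 ± 1.38 (SE, limma adjusted p = 0.572). In both genes the second tumor was the highest of the EpCAM+ plastic group and the lowest of the full epithelial group. *Lce3b*, a member of the LCE group known in human skin for its induction after barrier injury, read 9.87, 10.80 and 7.33 in EpCAM+ plastic and 11.08, 10.61 and 11.06 in full epithelial cells (log2 fold change −1.59, SE 0.81, limma adjusted p = 0.324).

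The 8 measured *Lce1* genes shared an order of arrays. EpCAM+ plastic 3 was the lowest of all 6 arrays in 8 of 8, full epithelial 2 the lowest of its group in 8 of 8, EpCAM+ plastic 1 and 2 were both above full epithelial 2 in 8 of 8, and EpCAM+ plastic 2 was the highest of all arrays in 6 of 8. Their median SD was 2.47 among EpCAM+ plastic and 1.31 among full epithelial tumors, against a median log2 fold change of −1.25. *Lce1h* had the most positive log2 fold change of the 46 genes, 0.27 (SE 1.20, limma adjusted p = 0.931). It read 8.72, 10.38 and 5.97 in EpCAM+ plastic and 9.09, 6.32 and 8.87 in full epithelial cells. Without EpCAM+ plastic 2 its log2 fold change was −0.75 and without full epithelial 2 it was −0.62, so its sign rested on single arrays. The 3 *Lce3* genes measured had log2 fold changes from −1.59 to −0.97 and a median SD of 1.37 among EpCAM+ plastic and 0.26 among full epithelial tumors. LCE genes form a family of related copies. The probe sets of *Lce1d*, *Lce1h*, *Lce1i*, *Lce3b* and *Lce3c* carry the suffix x and that of *Lce1m* the suffix s. These suffixes mark probes that can match other genes or several transcripts. Values of single LCE genes are therefore uncertain as to gene, and how far their common order is one signal read by several probe sets was not tested.

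**Figure D3:**
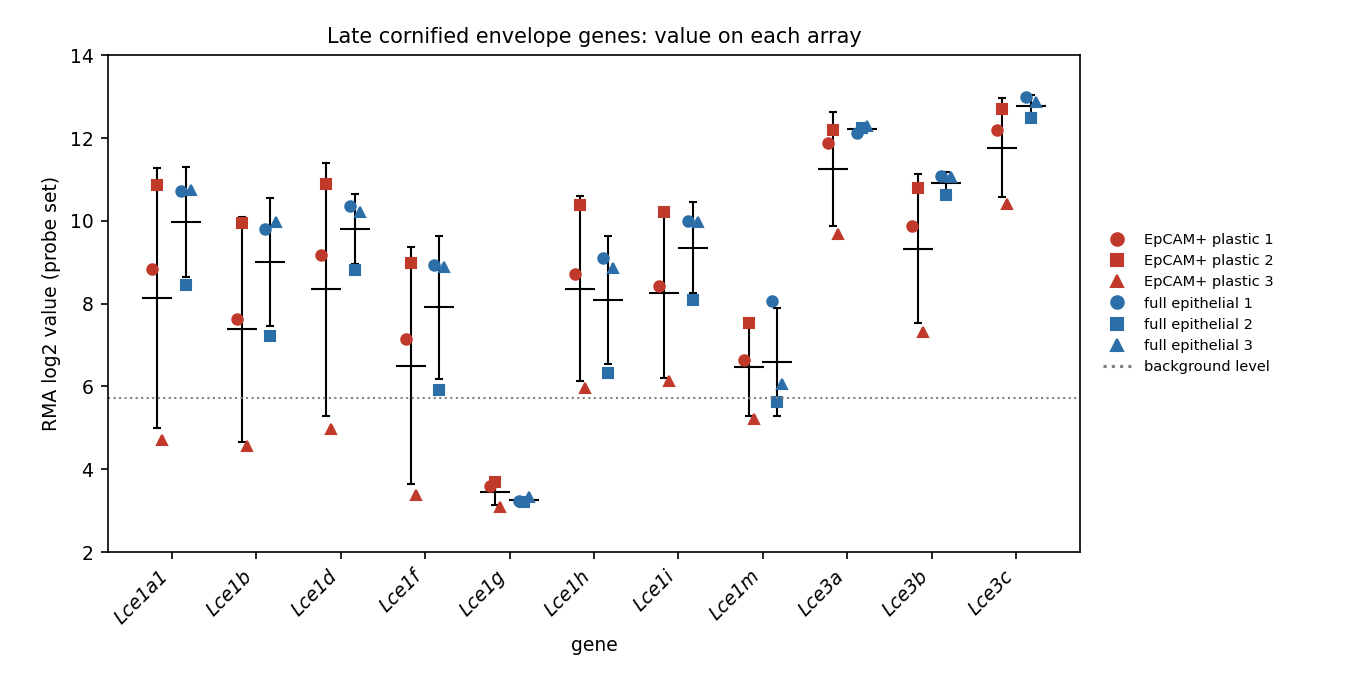
RMA log2 values (y axis) of the 11 measured late cornified envelope genes (x axis) on each array, with EpCAM+ plastic in red left of full epithelial in blue, and the tumor number by symbol. Horizontal bars are group means and vertical bars 1 SD (n = 3 each), and the dotted line is the background level. In each *Lce1* gene, with *Lce1g* at background, the red triangle (EpCAM+ plastic 3) is below the red square (EpCAM+ plastic 2), and the blue square (full epithelial 2) is the lowest blue point.

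The promoters of 3 *Lce1* genes are printed because they hold a block of letters that few other promoters have. They are the last 150 bases before the start (RefSeq, build GRCm38.p6, strand of the gene), and capitals mark the block ACTGTCTCACAGG.
*Lce1a1* (chr3:92648308-92648457, minus strand): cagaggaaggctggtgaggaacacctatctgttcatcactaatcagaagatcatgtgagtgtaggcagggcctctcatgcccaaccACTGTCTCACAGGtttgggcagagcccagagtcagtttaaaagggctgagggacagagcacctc
*Lce1b* (chr3:92656927-92657076, minus strand): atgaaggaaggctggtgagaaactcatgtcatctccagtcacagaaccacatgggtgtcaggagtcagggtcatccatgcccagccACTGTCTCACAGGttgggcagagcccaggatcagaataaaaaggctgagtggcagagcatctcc
*Lce1h* (chr3:92765066-92765215, minus strand): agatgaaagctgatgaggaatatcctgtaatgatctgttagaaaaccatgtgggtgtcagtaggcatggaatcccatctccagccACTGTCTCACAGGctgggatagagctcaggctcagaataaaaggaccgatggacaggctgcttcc

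The block of 13 bases began 64 or 65 bases before the start. It was copied from the *Lce1h* window itself after the sequences had been read, and then searched. The block was present in 6 of the 9 *Lce1* genes with a window and in 0.0213% of all 32851 windows. That share counts the *Lce1* windows too, so its rarity follows in part from how the block was picked. None of the 9 *Lce1* windows held TGANTCA and 2 held TATAAA, where the *Sprr2* windows held both in 7 of 8 genes. As near copies of one another these genes share most letters around the block, and no factor is named for it here.

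The transglutaminases, which form the cross-links of the envelope, were lower in all 3 genes without overlap of the groups. *Tgm1*, the membrane-anchored enzyme that is deficient in lamellar ichthyosis, fell. Its values were 10.63, 10.71 and 9.90 in EpCAM+ plastic and 11.70, 11.50 and 11.59 in full epithelial cells, with a log2 fold change of −1.18 ± 0.22 (SE, limma adjusted p = 0.0300). The highest EpCAM+ plastic tumor lay 0.79 below the lowest full epithelial tumor. *Tgm3*, which pre-links loricrin and SPRR proteins in the cytosol, had a larger difference that did not pass. It read 6.48, 8.47 and 5.87 in EpCAM+ plastic and 10.14, 9.19 and 9.56 in full epithelial cells, with a log2 fold change of −2.69 ± 0.64 (SE, limma adjusted p = 0.0617), and the spread among EpCAM+ plastic tumors was 2.60. Without EpCAM+ plastic 2, the tumor nearest to full epithelial cells, *Tgm3* and *Rptn* passed, with log2 fold changes of −3.45 (limma adjusted p = 0.0111) and −4.04 (limma adjusted p = 0.0350). *Tgm5* also fell, at 4.32, 4.45 and 4.49 in EpCAM+ plastic and 5.23, 5.01 and 5.63 in full epithelial cells (log2 difference −0.87, SE 0.16, limma adjusted p = 0.0328). Both groups of *Tgm5* lay under the background level, so that difference is not read as a fold. *Tgm1* passed in 2 of 6 fits that each left out 1 array, those without EpCAM+ plastic 2 or 3, and *Tgm5* in 2, those without full epithelial 2 or 3. Over these fits the log2 fold change of *Tgm1* ran from −1.33 to −0.93 and the log2 difference of *Tgm5* from −1.01 to −0.70.

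The plakins and other cytoplasmic envelope proteins, with the metallothionein *Mt4* listed beside them, had 5 measured genes. Of these 2 fell, *Evpl* and *Mt4*. *Evpl*, which encodes envoplakin, was at 9.75, 9.77 and 9.42 in EpCAM+ plastic and 10.53, 10.57 and 10.75 in full epithelial cells, with a log2 fold change of −0.97 ± 0.13 (SE, limma adjusted p = 0.0130). The 3 tumors of each group were close together, and the gap between the groups was wider than the range of either. Its partner *Ppl* (periplakin) was also without overlap, at 10.36, 11.13 and 10.03 in EpCAM+ plastic and 11.45, 11.15 and 11.29 in full epithelial cells, but EpCAM+ plastic 2 was only 0.02 below full epithelial 2 and the test was not passed (log2 fold change −0.79, SE 0.27, limma adjusted p = 0.152). *Mt4*, a metallothionein of stratified epithelia, fell, with 3.53, 3.73 and 3.12 in EpCAM+ plastic and 4.92, 4.96 and 5.00 in full epithelial cells (log2 difference −1.50, SE 0.16, limma adjusted p = 0.00842). All 6 *Mt4* values were under the background level, so that difference is not read as a fold either. *Scel*, encoding sciellin, had a log2 fold change of −2.39 (limma adjusted p = 0.206) and *Cnfn*, encoding cornifelin, one of −1.13 (limma adjusted p = 0.339). In both, EpCAM+ plastic 2 lay above full epithelial 2.

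**Figure D4:**
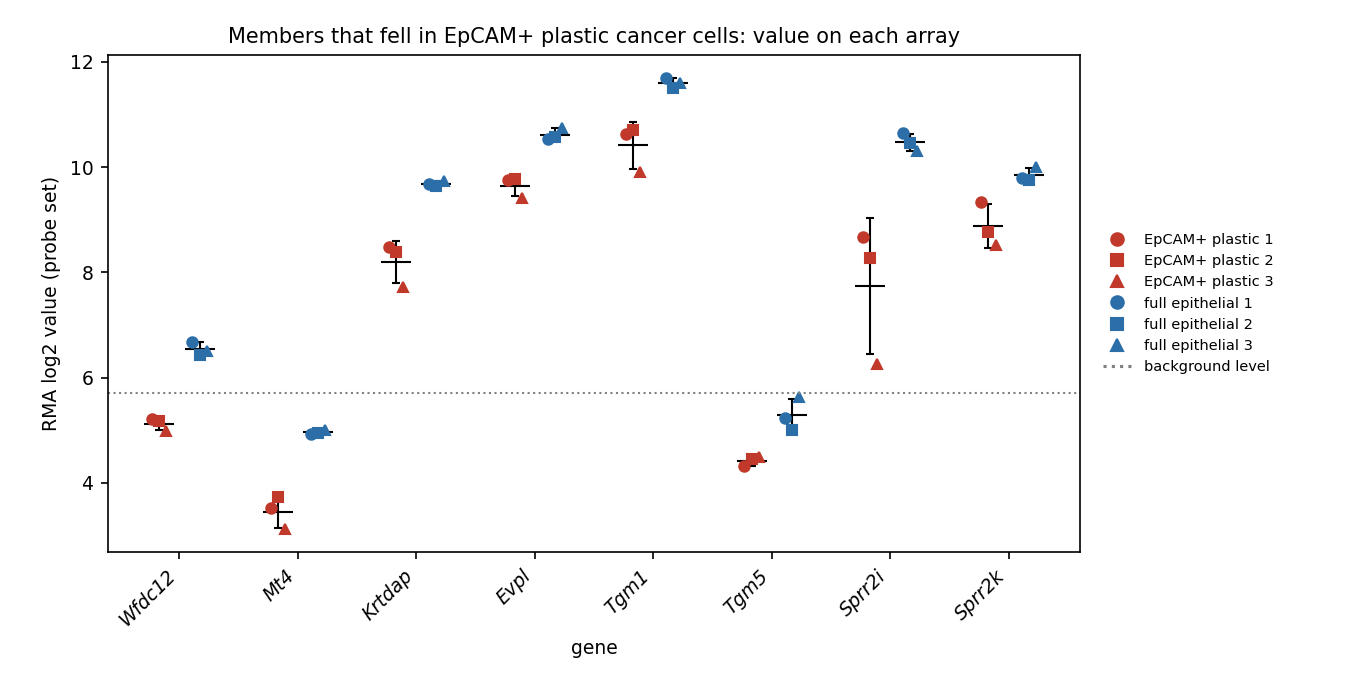
RMA log2 values (y axis) of the 8 genes that fell (x axis) on each array, with EpCAM+ plastic in red left of full epithelial in blue, and the tumor number by symbol. Horizontal bars are group means and vertical bars 1 SD (n = 3 each), and the dotted line is the background level. All red points of a gene lie below all its blue points, *Mt4* and *Tgm5* lie under the background level in both groups, and *Sprr2i* has the widest red spread.

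Among the secreted and corneodesmosomal proteins, *Krtdap* fell and the other 3 genes did not pass. *Krtdap*, a small secreted protein of differentiating keratinocytes, stood at 8.48, 8.38 and 7.73 in EpCAM+ plastic and 9.68, 9.64 and 9.74 in full epithelial cells, with a log2 fold change of −1.49 ± 0.20 (SE, limma adjusted p = 0.0130). The 3 full epithelial tumors were within 0.10 of one another, and the highest EpCAM+ plastic tumor was 1.16 below the lowest of them. *Cdsn*, the gene of corneodesmosin, which holds corneocytes together, had a log2 fold change of −0.97 (limma adjusted p = 0.312) with overlap. *Dmkn* (dermokine) and *Sbsn* (suprabasin), which lie next to *Krtdap* on chromosome 7, had log2 fold changes of only −0.35 (limma adjusted p = 0.199) and −0.31 (limma adjusted p = 0.296). The promoter of *Krtdap* is printed as that of a gene off chromosome 3 that fell in the fit of all arrays and in each fit that left out 1 array, over the last 120 bases before its start (RefSeq, build GRCm38.p6), with TGANTCA and TATAAA in capitals.
*Krtdap* (chr7:30787785-30787904, plus strand): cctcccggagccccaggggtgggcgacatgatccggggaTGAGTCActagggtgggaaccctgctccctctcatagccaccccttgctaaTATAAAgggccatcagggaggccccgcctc

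TATAAA began 30 bases and TGANTCA 81 bases before the start of *Krtdap*. Of the 16 genes with a window that lie off chromosome 3, 4 held TGANTCA and 3 held TATAAA. *Evpl*, *Mt4* and *Wfdc12*, also off chromosome 3, fell in all of the same fits and are not printed. Of the 8 genes that fell, 7 had a window, and 3 of these held TGANTCA and 4 held TATAAA (all windows 6.75% and 12.4%). Those with TGANTCA were *Sprr2i*, *Sprr2k* and *Krtdap*.

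The protease inhibitors of the upper layers had 7 measured genes of 9 listed, 1 of which fell. *Wfdc12*, a small whey acidic protein domain inhibitor, had the smallest p of the 46 genes. Its values were 5.22, 5.18 and 4.98 in EpCAM+ plastic and 6.68, 6.43 and 6.51 in full epithelial cells, with a log2 fold change of −1.41 ± 0.11 (SE, limma adjusted p = 0.00535). Since all 3 EpCAM+ plastic values lay under the background level, the loss was at least 1.78-fold when that level stood in for them. Its neighbour *Wfdc5* had a larger difference, −2.60 ± 1.03 (SE, limma adjusted p = 0.211), at 8.58, 9.95 and 5.47 in EpCAM+ plastic and 10.90, 10.15 and 10.74 in full epithelial cells. *Spink5*, which encodes the kallikrein inhibitor LEKTI, was at 6.58, 8.38 and 4.19 in EpCAM+ plastic and 9.01, 8.16 and 7.71 in full epithelial cells (log2 fold change −1.91, SE 0.98, limma adjusted p = 0.327). EpCAM+ plastic 2 overlapped the full epithelial tumors for *Spink5* but not for *Wfdc5*. The cystatins *Csta1*, *Stfa3*, *Cstb* and *Cst6*, inhibitors of cysteine proteases, had log2 fold changes from −0.86 to −0.32 and none passed. The late proteases that process filaggrin, *Asprv1* with −0.44 and *Casp14* with −0.37, did not pass, and *Casp14* was at background.

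By position, 25 measured genes lie on chromosome 3, with a median log2 fold change of −1.01. Of these, 2 fell (all genes 1.91%), and in 8 every EpCAM+ plastic array was lower (all genes 13.7%). The 21 measured genes on other chromosomes had a median of −0.97. Among them 6 fell, and in 15 every EpCAM+ plastic array was lower, against the same shares of all genes. The median SD among EpCAM+ plastic tumors was 1.30 for the genes on chromosome 3 and 0.41 for the others. The medians thus lay close while the spread did not, and the difference between both sets was not tested. *Wfdc12*, *Mt4*, *Krtdap* and *Evpl*, all off chromosome 3, were the genes that passed in each of the 6 fits that left out 1 array.

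Other genes of the same program were read from 6 lists, of which 61 of 69 genes were measured. Of these, 5 fell (all genes 1.91%), 3 rose (all genes 5.30%) and 53 did not pass, and the median log2 fold change was −0.45. Genes for the lipids attached to the envelope had the lowest median, −2.21, with all 9 below 0, no overlap of the groups in 7 and 1 that fell. That gene, *Abca12*, the lipid transporter of lamellar granules that is mutated in harlequin ichthyosis, was at 4.95, 5.49 and 4.44 in EpCAM+ plastic and 7.86, 8.01 and 6.87 in full epithelial cells (log2 fold change −2.62, limma adjusted p = 0.0149). As all 3 EpCAM+ plastic values lay under the background level, its loss was at least 3.66-fold. *Blmh*, the protease that completes filaggrin breakdown, fell with 9.46, 9.73 and 9.37 in EpCAM+ plastic and 10.53, 10.58 and 10.51 in full epithelial cells (log2 fold change −1.02, SE 0.11, limma adjusted p = 0.00900). It was the only one of 7 filaggrin processing genes to pass.

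Among 18 regulators of late differentiation, 2 fell and 1 rose. *Dlx3*, a homeobox factor of the upper epidermis, fell, at 5.69, 6.56 and 4.79 in EpCAM+ plastic and 8.92, 7.90 and 8.31 in full epithelial cells (log2 fold change −2.70, SE 0.46, limma adjusted p = 0.0248), with EpCAM+ plastic 1 and 3 under the background level and 1 of the 3 EpCAM+ plastic arrays above it. With that level standing in for both arrays, the loss of *Dlx3* was at least 5.22-fold. The epithelial ETS factor *Elf3* fell by less, with a log2 fold change of −0.42 ± 0.09 (SE, limma adjusted p = 0.0488). *Notch1*, a receptor that promotes the exit from the basal layer, rose, at 10.02, 9.50 and 9.99 in EpCAM+ plastic and 8.48, 9.21 and 8.66 in full epithelial cells (log2 fold change 1.06, SE 0.23, limma adjusted p = 0.0452). *Klf4*, a zinc finger factor of the barrier that did not pass, lay nearest to 0 of the 18, with a log2 fold change of −0.02 (limma adjusted p = 0.942). The median of the 18 was −0.32, and 14 were below 0 (all genes 54.3%). In 6 of the 18 every EpCAM+ plastic array was lower (all genes 13.7%), and in 3 every one was higher (all genes 15.4%). Of 11 further envelope partners, the desmosomal *Pkp1* fell (log2 fold change −0.47, SE 0.08, limma adjusted p = 0.0281), while *S100a10* (log2 fold change 0.82, SE 0.12, limma adjusted p = 0.0165) and the broadly expressed *Tgm2* (log2 fold change 1.37, SE 0.30, limma adjusted p = 0.0475) rose. None of the 10 measured desquamation genes passed, although all 10 had log2 fold changes below 0, and none of the 6 suprabasal keratins passed.

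The labelled cell type was read from marker genes. The suprabasal markers *Krt1*, *Dsg1a* and *Dsc1* were under the background level in both groups. *Krt10* was at 6.29, 6.84 and 5.52 in EpCAM+ plastic and 7.12, 6.89 and 6.87 in full epithelial cells. *Dsg1b*, from the desquamation list, was at 4.31, 5.24 and 3.60 in EpCAM+ plastic and 6.67, 6.13 and 5.33 in full epithelial cells (limma adjusted p = 0.0999). Its mean was above the background level in full epithelial cells only. Among the other suprabasal keratins, *Krt2* and *Krt77* were under the background level in both groups, while *Krt78* and *Krt80* were bright. *Krt78* was at 9.81, 10.15 and 8.24 in EpCAM+ plastic and 11.18, 10.90 and 10.87 in full epithelial cells (log2 fold change −1.58, SE 0.46, limma adjusted p = 0.104). *Krt80* was at 9.08, 9.89 and 8.72 in EpCAM+ plastic and 10.25, 9.18 and 10.01 in full epithelial cells. All 6 basal keratinocyte markers were above background, and 1 of them, *Col17a1*, rose (log2 fold change 1.26, SE 0.26, limma adjusted p = 0.0408). Their summed linear signal was 14571 to 16889 in EpCAM+ plastic and 11961 to 13639 in full epithelial cells. Their median deviation from the full epithelial mean was 0.68, 0.20 and 0.56 in EpCAM+ plastic 1, 2 and 3, so that EpCAM+ plastic 2 was the nearest to full epithelial cells for basal markers as it was for the 46 genes. None of 5 leukocyte, 6 neutrophil, 7 fibroblast, 4 endothelial, 4 melanocyte and 6 hair markers passed, with *Ptprc*, *Camp*, *Ngp*, *Cxcr2* and all endothelial, melanocyte and hair markers at background by group mean. The other 3 genes of the neutrophil list were well above background on all arrays. *Ltf* was at 11.60 to 12.39 in EpCAM+ plastic and 11.46 to 12.16 in full epithelial cells. *S100a9* was at 9.39 to 10.07 in EpCAM+ plastic and 9.64 to 10.94 in full epithelial cells. *S100a8* was at 8.90 to 9.95 in EpCAM+ plastic and 9.16 to 10.76 in full epithelial cells. The neutrophil list summed to 4301 to 7484 in EpCAM+ plastic and 4234 to 8315 in full epithelial cells. Fibroblast markers summed to 220 to 847 in EpCAM+ plastic and 301 to 482 in full epithelial cells, the highest sum being that of EpCAM+ plastic 2. Which cells made *Ltf*, *S100a8* and *S100a9* was not tested. The part of the basal, neutrophil or fibroblast lists in the differences of the 46 genes was not tested either.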

How the data were processed

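Total RNA of sorted cancer cells (10 ng) was amplified and hybridised to Affymetrix mouse expression arrays, 1 per tumor. Deposited were log2 values that the authors had normalized with RMA (version not stated in these sources). RMA corrects background, normalizes probes by quantiles and summarises each probe set, so fold changes are differences of deposited log2 values and probe sets near background understate a change. A second deposited table held the same values for the 6 arrays and was not used. Arrays hold no read depth, so their number limits the precision.

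The platform annotation gave 1 gene for 28898 of 45141 probe sets, several for 551, and did not list 15692. The brightest single-gene probe set stood for a gene, 17097 in all, and symbols were updated through a RefSeq table of GRCm38.p6. limma 3.58.1 (R 4.3.3) fitted all 45141 probe sets with lmFit and eBayes, as EpCAM+ plastic minus full epithelial without covariates, on 4 residual and 2.81 prior degrees of freedom, and Benjamini-Hochberg adjustment over all of them. The fit was tested on simulated data. A gene fell or rose at an adjusted p under 0.05, and the fold threshold was an absolute log2 value of 1. Promoters came from RefSeq windows of 250 bases before and 50 after the start. These matched 47 of the 57 genes by symbol, and only the 250 bases were searched.

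The 57 genes and the other lists were chosen with earlier results of these data known. Given in full were genes that passed, *Ivl*, *Lor*, *Flg*, *Tgm1* and *Tgm3*, and the genes with the most negative and most positive fold change, with up to 3 examples per role by fold change. From the other lists, those that passed were named. *Klf4* and several keratin, desmosomal and cell type marker genes that did not pass were also given.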

Additional observations from a re-analysis of the deposited data

How the results depend on the processing

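The 46 genes kept a negative median log2 fold change under every alternative run, and 0 of them rose under any. Leaving out each array in turn, 4 to 9 genes fell (5 without EpCAM+ plastic 1, 4 without full epithelial 1, 5 without full epithelial 2 or 3), 3 to 9 passed both thresholds (9 without EpCAM+ plastic 2, 3 without full epithelial 3), 0 rose, and the median ran from −1.41 to −0.38, the last without EpCAM+ plastic 3. Of the other differentiation genes, 1 to 11 fell (1 without EpCAM+ plastic 1 or full epithelial 1, 2 without full epithelial 3, 11 without EpCAM+ plastic 2) and 0 to 3 rose (0 without EpCAM+ plastic 1 or 3 or full epithelial 1, 1 without full epithelial 3). Fewer arrays enter each of these fits.

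Among the other settings, repeating the quantile normalization left 1 other differentiation gene that rose, as did the mean over all probe sets of a gene. Leaving out dim probe sets gave 10 other genes that fell, with fewer genes tested, and eBayes with trend and robust fitting gave 3. Over all genes, 73.5% of calls were rises, and 60.3% after repeated quantile normalization, where 7 of the 46 genes fell. *Lce1h* turned to −0.14 with array weights, −0.75 without EpCAM+ plastic 2 and −0.62 without full epithelial 2, in a range of −0.75 to 1.46 over fits that left out 1 array, and the cause was not tested. Of 192 results for 14 named genes under 14 alternatives, 156 kept direction and call, 27 lost the call, 6 gained it and 3 changed sign. Leaving out probe sets with suffix x or s, chosen after seeing the data, left the 8 genes that fell.

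The labels do not say whether same-numbered tumors of the groups belong together. Deviations of same-numbered arrays correlated at −0.18, −0.37 and −0.01, and those of unlike-numbered arrays at −0.29 to 0.38. With 3 tumors per group, these values cannot decide whether tumors were paired. With the replicate number as a block, 2 genes fell (*Mt4* and *Wfdc12*), 2 passed both thresholds, 2 other differentiation genes fell and 0 rose. The median log2 fold change of the 46 genes stayed at −0.97 under the block, and why calls were lost was not tested.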
